A study of Mus musculus with 6 samples.

Results

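The CC chemokines are small secreted proteins that draw leukocytes into tissue, and they act through G protein-coupled receptors named Ccr. In gingiva, the mucosa around the teeth, they were measured in 37 genes of the 21948 in the authors' expression table. These were all genes named Ccl, Ccr or Ackr followed by a number (and, for Ccl, an optional letter), plus Ccrl2, Cx3cl1 and Cx3cr1, a choice by name. They comprise 21 ligands and 16 receptors. Of the receptors, 11 signal and the remaining 5 (Ackr1, Ackr2, Ackr3, Ackr4 and Ccrl2) are atypical: they bind chemoattractants without coupling to G proteins and mostly take up, move or present them.

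The series compared Plg KO mice, which lack plasminogen, with Plg WT littermates. All mice were C57BL/6, aged 12 weeks, with no treatment named. The labels do not describe the Plg allele. Each group had 3 RNA libraries of total gingival RNA, with 26183389 to 36429150 gene counts each. The labels do not say that each library came from its own animal, so a p-value here reflects variation among libraries, which may be technical. The Y-linked transcript Ddx3y had 1475 and 1838 counts in Plg WT 3 and Plg KO 1 and at most 2 elsewhere, so each group held RNA of both sexes. Plg itself, which is made mostly in the liver, had 2 counts in each group and gives no check of the genotype. Summed levels of 8 oral epithelial markers were 43078 to 52523 CPM (a library-scaled count unit), so epithelium of the labelled tissue was present. Transcripts of salivary gland and skeletal muscle were present too.

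Chemokine biology in such a barrier tissue has a few well-known branches. Inflammatory ligands such as Ccl2 and Ccl20 are induced by cytokines and bacterial products and recruit monocytes through Ccr2 and Th17 cells, B cells and dendritic cells through Ccr6. Homeostatic ligands such as Ccl19 and Ccl21a guide dendritic cells and T cells into lymphatic vessels and lymphoid tissue through Ccr7, and atypical receptors on endothelium clear or transport ligands of both kinds. In whole tissue, fewer cells of a type and less RNA per cell cannot be told apart.

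Of the 37 genes, 31 had enough counts to be tested. No member passed edgeR's quasi-likelihood test at an adjusted p under 0.05 (Benjamini-Hochberg over 17757 genes), where 0.237% of all tested genes did. That share stands for 42 genes, and fits that left out 1 library called 2 to 219 genes. At an unadjusted p under 0.05, 6 of 31 were higher in Plg KO (4.97% of all tested genes) and 3 of 31 lower (4.27%). The higher ones were the ligands Ccl2, Ccl6, Ccl7, Ccl20 and Ccl28 and the receptor Ccr1. The lower ones were the ligand Ccl19, the receptor Ccr6 and the scavenger Ackr4. DESeq2 called 2 members at an adjusted p under 0.05, Ccl20 and Ccl2, both higher (1.54% of all genes were higher by that rule), and limma-voom called 0.

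The 3 Plg KO libraries all lay above the 3 Plg WT libraries in 6 members, against 7.43% of all tested genes, and these were the same 6 as above. They all lay below in 8 members, against 7.17%: Ccl11, Ccl19, Ccl21a, Cx3cl1, Ccr6, Ccr10, Ackr2 and Ackr4. The median log2 difference of the 31 was 0.13, beside -0.00 for all tested genes, with 16 positive and 15 negative. That median was -0.12 to 0.074 when 1 library was left out, with either sign among those fits. Members lay on both sides. Of 17 tested ligands 11 had a positive difference, and of 14 tested receptors 9 had a negative one.

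**Figure D1:**
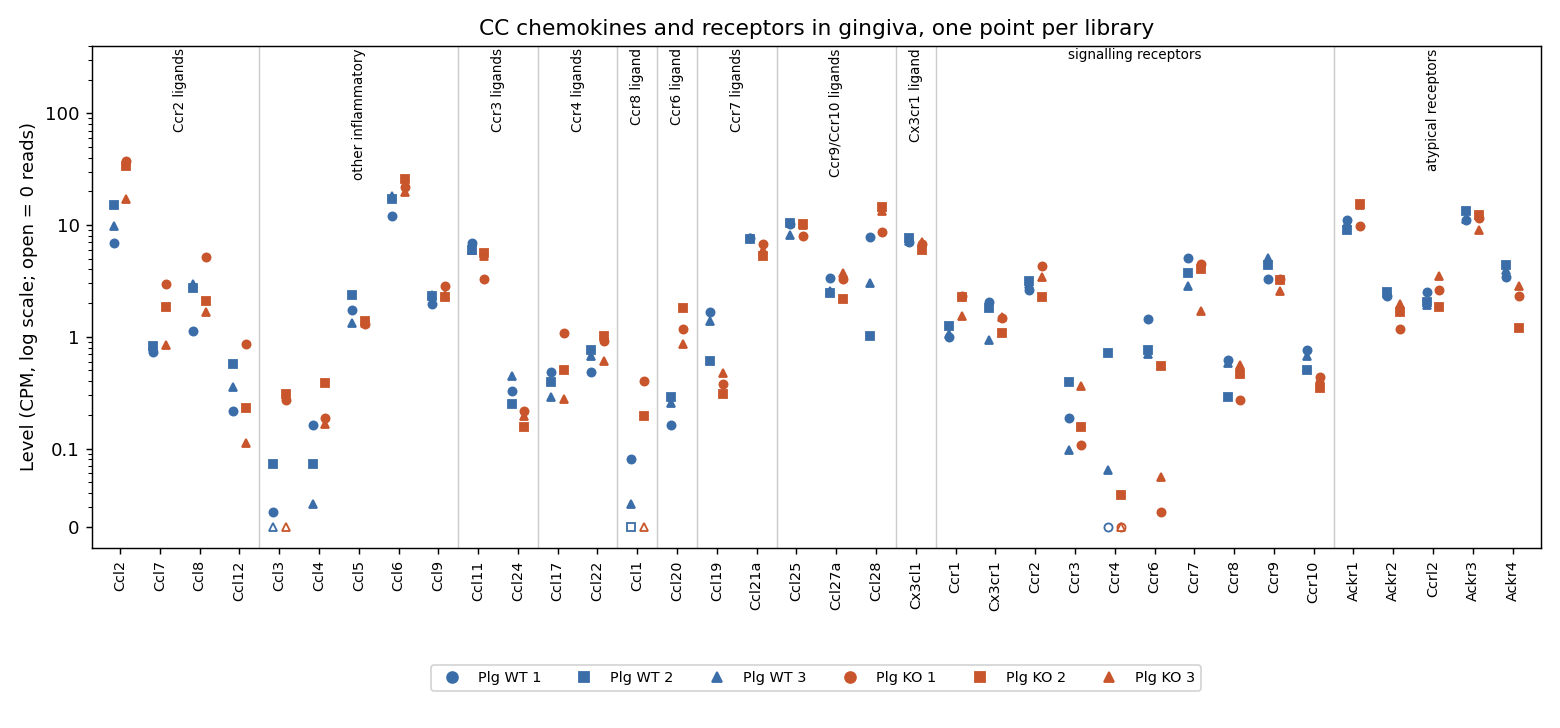
Level of the members described in the text in each library, in CPM on a log axis, grouped by role, with Plg WT in blue, Plg KO in orange, the replicate as marker shape and 0 reads as open markers at the bottom. Ccl2 in Plg KO reaches 37.3 CPM, whereas Ccl1, Ccl3, Ccl4, Ccl12, Ccl24, Ccr3, Ccr4, Ccr8 and Ccr10 stay under 1 CPM in every library.

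Promoter sequence is shown for 3 of these genes, as the bases before the transcription start that carry a match to the kappa-B consensus, the site of the NF-kappa-B factors that drive many inflammatory chemokines. RefSeq promoters on GRCm38.p6 were matched by symbol for 28 of 37 members. Ccl2 and Ccl7 were not among these 28, so their promoters were not searched. Each run holds 250 bases, 5′ to 3′ on the gene's strand, with the kappa-B matches in capitals: Ccl20 at chr1:83116516-83116765 (plus strand), Ccr1 at chr9:123968693-123968942 (minus strand) and Ackr2 at chr9:121898105-121898354 (plus strand).
Ccl20: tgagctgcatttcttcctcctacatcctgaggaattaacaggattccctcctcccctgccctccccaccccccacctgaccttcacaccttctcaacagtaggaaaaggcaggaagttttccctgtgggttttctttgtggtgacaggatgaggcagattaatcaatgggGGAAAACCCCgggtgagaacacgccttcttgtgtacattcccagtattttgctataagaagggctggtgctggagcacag
Ccr1: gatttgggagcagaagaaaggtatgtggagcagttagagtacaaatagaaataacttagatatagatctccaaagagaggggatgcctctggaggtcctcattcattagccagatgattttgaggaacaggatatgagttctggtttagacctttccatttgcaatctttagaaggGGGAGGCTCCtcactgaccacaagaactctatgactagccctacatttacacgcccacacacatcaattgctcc
Ackr2: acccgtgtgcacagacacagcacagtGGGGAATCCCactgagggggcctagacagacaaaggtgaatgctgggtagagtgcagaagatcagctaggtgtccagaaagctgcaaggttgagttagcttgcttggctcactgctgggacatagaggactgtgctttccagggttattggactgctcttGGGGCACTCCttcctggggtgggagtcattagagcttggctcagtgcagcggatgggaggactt

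Ccl20 and Ccr1 were higher in Plg KO at an unadjusted p under 0.05, and Ackr2, whose window holds 2 matches, had its 3 Plg KO libraries below Plg WT. Among the genes shown, a kappa-B match in this window stood beside differences of either sign. Ccl1, Ccl9, Ccr3, Ccr6 and Ccrl2 also held a match and are not shown. Of these, Ccr6 was lower at an unadjusted p under 0.05, Ccl9 and Ccrl2 had overlapping groups, and Ccl1 and Ccr3 were not tested. Ccl6, Ccl28, Ccl19 and Ackr4, also past that unadjusted threshold, were searched and held no kappa-B match. Searched on both strands, the kappa-B consensus was found in 8 of 34 member promoters (23.5%) and in 7.25% of 32851 promoters of the same length. The AP-1 motif TGANTCA was found in 4 of 34 (11.8%, against 6.75%) and TATAAA in 7 of 34 (20.6%, against 12.4%). A match is a description of letters only.

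Ccl20, the sole CC ligand of Ccr6 and a product of inflamed epithelium, had the smallest p and the largest positive difference of the 31 members. The gene (ENSMUSG00000026166) lies on GRCm38 chromosome 1, 83116766 to 83119167. It had 0.162, 0.288 and 0.257 CPM in Plg WT 1, 2 and 3 and 1.16, 1.82 and 0.864 CPM in Plg KO 1, 2 and 3. The lowest Plg KO library was well above the highest Plg WT library. These levels rest on 22 counts in Plg WT against 121 in Plg KO. Fitted across all genes, the log2 difference was 2.44 ± 0.43 (SE), a fitted 5.41-fold, and the adjusted p was 0.0954 by edgeR and 0.00184 by DESeq2 (0.00184 to 0.409 over the alternatives).

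Its receptor Ccr6, carried by Th17 cells, B cells and some dendritic cells, differed in the other direction. It had 1.43, 0.756 and 0.706 CPM in Plg WT against 0.0270, 0.543 and 0.0557 CPM in Plg KO, with 96 and 17 counts in all. Plg KO 1 and 3 were near the detection limit, and Plg KO 2 came close to the lowest Plg WT library. On the log2 scale the difference was -2.35 ± 0.89 (edgeR, adjusted p = 0.463), and -4.44 when Plg KO 2 was left out. B cell markers lay the same way: the 7 of 7 detected markers summed to 19.4 to 77.8 CPM in Plg WT against 2.29 to 16.4 CPM in Plg KO. Of them, 5 were lower at an unadjusted p under 0.05, beside 4.27% of all tested genes. Within Plg KO the order differed, as Plg KO 2 had the highest Ccr6 level and the lowest marker sum. Plg KO 3 had the highest sum of that group, mostly from Jchain at 12.0 CPM, above its level in every Plg WT library. The part of B cell content in the Ccr6 values was not tested.

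Ccr6 (ENSMUSG00000040899, GRCm38 chromosome 17, 8236043 to 8257141) is the sole member on the chromosome of Plg and lies 4.12 Mb from it. Whether the engineered locus bears on its level was not tested. The 10 T cell markers summed to 44.6 to 52.4 CPM in Plg WT against 43.6 to 45.3 CPM in Plg KO, mostly from Cd5 and Trbc2. Of 8 tested, 7 had a negative difference. Cd2, with overlapping groups, and Cd5 were lower at an unadjusted p under 0.05, beside 4.27% of all tested genes. Trbc2 lay the other way, at 14.4 to 16.5 CPM in Plg WT against 16.9 to 19.4 CPM in Plg KO. Il17a had 0 reads in all 6 libraries, at a depth where 3 counts equal 0.0810 to 0.117 CPM.

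The ligands of Ccr2, the receptor that brings monocytes out of the blood, were led by Ccl2. Ccl2 (ENSMUSG00000035385, chromosome 11, 82035571 to 82037453) had 6.93, 15.2 and 9.79 CPM in Plg WT against 37.3, 33.5 and 17.1 CPM in Plg KO. Plg KO 3 lay just above Plg WT 2, and the other 2 Plg KO libraries were clearly higher. The log2 difference was 1.47 ± 0.36 (95% interval 0.63 to 2.32), a fitted 2.77-fold, and the adjusted p was 0.223 by edgeR and 0.00287 by DESeq2 (0.00287 to 0.666 over the alternatives).

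Ccl7, the next gene on the chromosome, whose product also binds Ccr2, had 0.731, 0.828 and 0.803 CPM in Plg WT against 2.97, 1.86 and 0.836 CPM in Plg KO. Plg KO 3 was level with Plg WT, so the difference came from Plg KO 1 and 2. Fitted across all genes, the log2 difference was 1.27 ± 0.46 (edgeR, adjusted p = 0.434), or 0.76 without Plg KO 1. The related Ccl8 and Ccl12 had overlapping groups, at 1.14 to 2.95 against 1.67 to 5.14 CPM and 0.216 to 0.576 against 0.111 to 0.865 CPM, and Plg KO 1 was the highest library for both.

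Ccr2 itself had 2.62, 3.17 and 2.99 CPM in Plg WT against 4.32, 2.25 and 3.43 CPM in Plg KO, so the Plg KO libraries surrounded the Plg WT ones. Its log2 difference was 0.20 ± 0.27, with a 95% interval of -0.42 to 0.82. Of the monocyte markers, 0 of 9 tested were past an unadjusted p of 0.05, beside 9.25% of all tested genes. The 10 matched markers summed to 98.6 to 135.3 CPM in Plg WT against 103.8 to 179.6 CPM in Plg KO.

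Of the other inflammatory branch, the receptor Ccr1 and the ligand Ccl6 separated the groups. Ccr1, a receptor of monocytes, macrophages and neutrophils, had 1.001, 1.26 and 1.06 CPM in Plg WT against 2.32, 2.25 and 1.53 CPM in Plg KO. No library of one group fell within the other. On the log2 scale the difference was 0.88 ± 0.27 (edgeR, adjusted p = 0.336; ENSMUSG00000025804, chromosome 9, 123962124 to 123968692). The 10 neutrophil markers summed to 38.1 to 77.1 CPM in Plg WT against 155.6 to 512.7 CPM in Plg KO. Of 9 tested, 8 were higher at an unadjusted p under 0.05, beside 4.97% of all tested genes. Most of the sum in each Plg KO library was S100a8 and S100a9. The sum was highest in Plg KO 2, whereas Ccr1 was highest in Plg KO 1. The 10 macrophage markers summed to 75.7 to 87.7 CPM in Plg WT against 66.5 to 88.6 CPM in Plg KO. Of 9 tested, 0 were higher and 2, Lyve1 and Cd163, lower at that unadjusted threshold, beside 4.97% and 4.27% of all tested genes. The part of these markers' cells in the Ccr1 values was not tested.

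Among the other inflammatory ligands, the myeloid chemokine Ccl6 had 12.0, 17.0 and 18.3 CPM in Plg WT against 21.9, 25.7 and 19.7 CPM in Plg KO. The gap between the groups was small, from 18.3 to 19.7 CPM. Its log2 difference was 0.51 ± 0.18 (edgeR, adjusted p = 0.417). Its neighbour Ccl9 had overlapping groups at 1.95 to 2.38 and 2.25 to 2.87 CPM, and Ccl5, a product of T cells and NK cells, had 1.32 to 2.34 CPM in Plg WT against 1.30 to 1.40 CPM in Plg KO. The macrophage inflammatory proteins Ccl3 and Ccl4 were too scarce to test. Ccl3 had 1, 2 and 0 counts in Plg WT against 10, 8 and 0 in Plg KO, and Ccl4 had 6, 2 and 1 counts in Plg WT against 7, 10 and 6 in Plg KO.

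**Figure D2:**
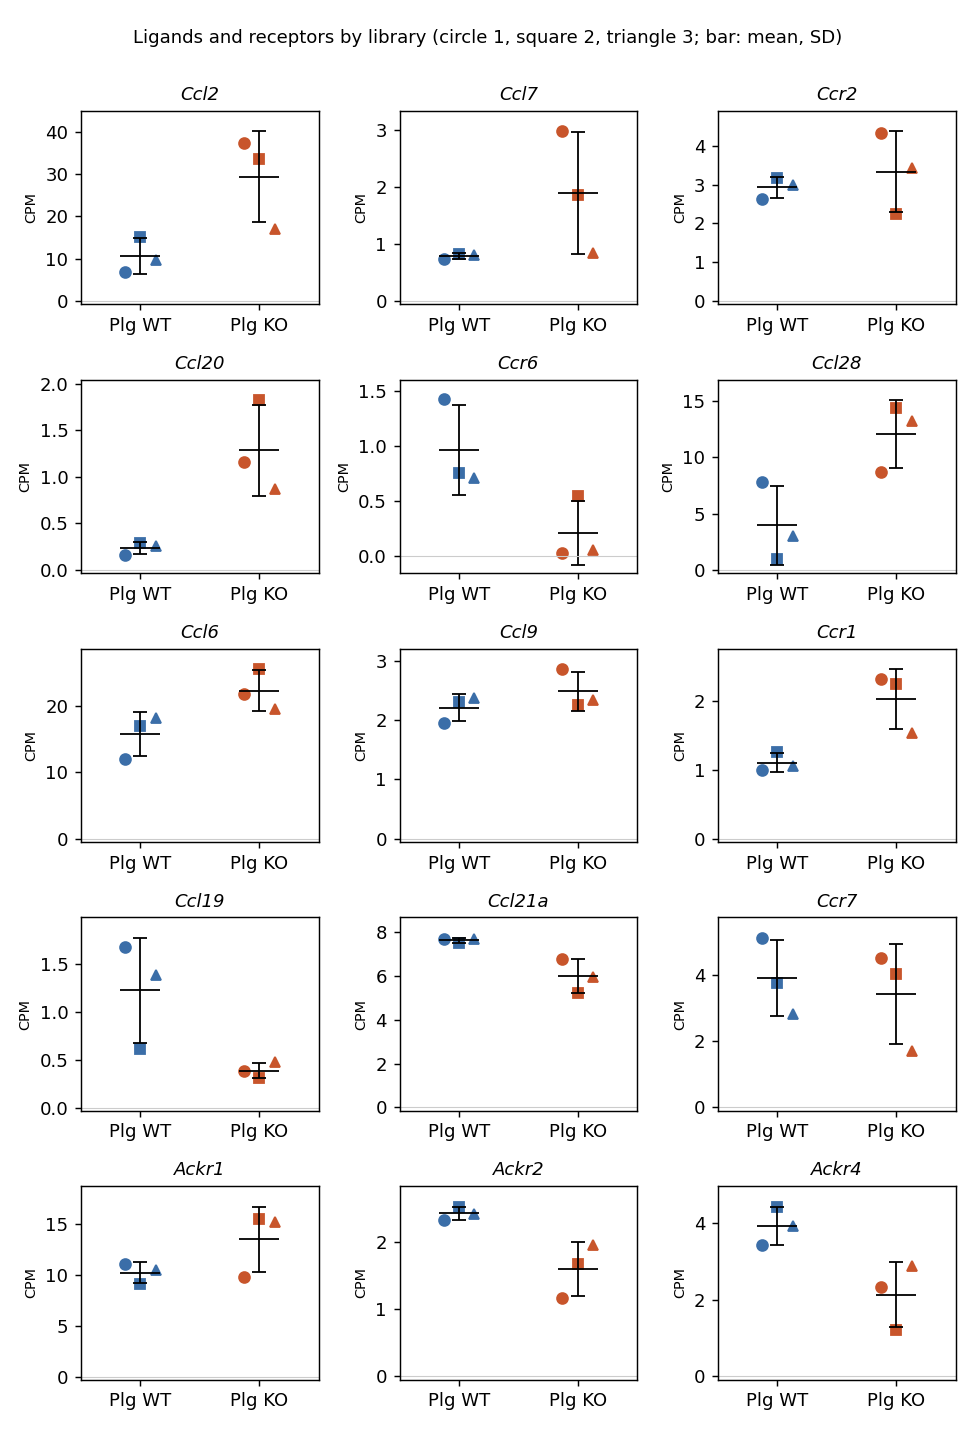
Levels in CPM of 15 ligands and receptors in Plg WT (blue) and Plg KO (orange), with 1 point per library and the mean and SD of 3 libraries in black, on linear axes that include 0. Ccl20 and Ccl2 lie higher in all 3 Plg KO libraries, Ccr6, Ccl19 and Ackr4 lie lower, and Ccr2 and Ccr7 overlap.

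In the Ccr7 branch, which serves exit through lymphatics, Ccl19 and the scavenger Ackr4 were lower at an unadjusted p under 0.05 and no member was after adjustment in edgeR's test. Ccl19 (ENSMUSG00000071005, chromosome 4, 42754525 to 42756577) had 1.68, 0.612 and 1.38 CPM in Plg WT against 0.378, 0.310 and 0.474 CPM in Plg KO. The groups did not overlap, though Plg WT 2 was near the Plg KO range. The log2 difference was -1.65 ± 0.45 (edgeR, adjusted p = 0.271) on 122 and 39 counts. Ccl21a, the other ligand of Ccr7, was tight in Plg WT at 7.68, 7.49 and 7.70 CPM and had 6.78, 5.23 and 5.94 CPM in Plg KO. Its log2 difference was -0.34 ± 0.15 (95% interval -0.69 to 0.00).

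Ackr4, which takes up Ccl19, Ccl21 and Ccl25, had 3.44, 4.43 and 3.92 CPM in Plg WT against 2.32, 1.20 and 2.87 CPM in Plg KO. Every Plg KO library was below Plg WT, Plg KO 2 by the most. Fitted across all genes, the log2 difference was -0.86 ± 0.32 (edgeR, adjusted p = 0.447). Of its exon bases 8.9% overlap Acad11, and the libraries carry no strand. Ccr7, the receptor of dendritic cells and T cells, overlapped, with 2.83 to 5.11 CPM in Plg WT against 1.70 to 4.51 CPM in Plg KO (log2 difference -0.19 ± 0.39, 95% interval -1.11 to 0.72).

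Ackr2, a scavenger of inflammatory CC chemokines on lymphatic endothelium, had 2.33, 2.52 and 2.41 CPM in Plg WT against 1.16, 1.67 and 1.95 CPM in Plg KO. The groups were apart, and the log2 difference was -0.60 ± 0.26 (edgeR, adjusted p = 0.544). Of 6 lymphatic markers 3 were lower at an unadjusted p under 0.05, beside 4.27% of all tested genes. These were Lyve1, the hyaluronan receptor that macrophages also carry, Mmrn1 and Reln. Lyve1 had 6.39 to 8.14 CPM in Plg WT against 3.29 to 3.98 CPM in Plg KO. The list's sum, 44.0 to 219.6 CPM in Plg WT against 43.2 to 256.5 CPM in Plg KO, was set by Pdpn, which epithelium makes too, and the defining factor Prox1 stayed under 1 CPM. The part of lymphatic vessel content in Ccl21a, Ackr2 and Ackr4 was not tested.

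Ackr1, which carries chemokines across venules, had 11.1, 9.11 and 10.5 CPM in Plg WT against 9.76, 15.5 and 15.2 CPM in Plg KO, with Plg KO 1 inside the Plg WT range. Cadm3 overlaps 25.7% of its exon bases. Ackr3, a scavenger of Cxcl12, had 11.1 to 13.3 and 8.95 to 12.3 CPM. Ccrl2, which binds and presents the attractant chemerin, had 1.93 to 2.52 and 1.86 to 3.51 CPM, with a log2 difference of 0.30 ± 0.28 (95% interval -0.36 to 0.97). None of these 3 separated the groups.

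Of the mucosal and skin ligands Ccl25, Ccl27a and Ccl28, the last separated the groups. Ccl28, a mucosal and salivary ligand of Ccr10 and Ccr3, had 7.82, 1.01 and 3.05 CPM in Plg WT against 8.68, 14.3 and 13.2 CPM in Plg KO. Plg WT 1 was close to Plg KO 1, and Plg WT 2 and 3 were far below. On the log2 scale the difference was 1.59 ± 0.62 (edgeR, adjusted p = 0.478), or 2.57 without Plg WT 1. Salivary gland markers were also highest in Plg WT 1 among the Plg WT libraries. The 12 matched markers, of which Prol1 and Prr27 were at 0, summed to 11938, 3456 and 1973 CPM in replicates 1 to 3 of Plg WT. Their sum was 9022 to 11363 CPM in Plg KO. Most of that sum was the mucin Muc5b. Bpifa2, Dcpp1, Dcpp2 and Dcpp3 had Plg WT 2 below Plg WT 3, as Ccl28 had. Muc5b, Muc19, Smgc and Aqp5 had Plg WT 2 above Plg WT 3, as the sum had. The part of gland tissue in the Ccl28 values was not tested.

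Ccl25, the ligand of the gut-homing receptor Ccr9, had 8.06 to 10.4 CPM in Plg WT against 7.92 to 10.1 CPM in Plg KO, and the keratinocyte ligand Ccl27a had 2.45 to 3.38 and 2.17 to 3.71 CPM. Neither separated the groups. Ccl27a has a near-identical copy, Ccl27b, and Ccl21a has Ccl21b. Both copies had 0 counts in all libraries, and the sources used here do not say how reads shared between copies were counted, so both genes' levels are uncertain. The receptor Ccr10 had 0.504 to 0.758 CPM in Plg WT against 0.349 to 0.432 CPM in Plg KO. Ccr9 had 3.27 to 5.10 and 2.56 to 3.30 CPM, with a log2 difference of -0.48 ± 0.23 (edgeR, adjusted p = 0.588), and 21.7% of its exon bases overlap other genes.

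**Figure D3:**
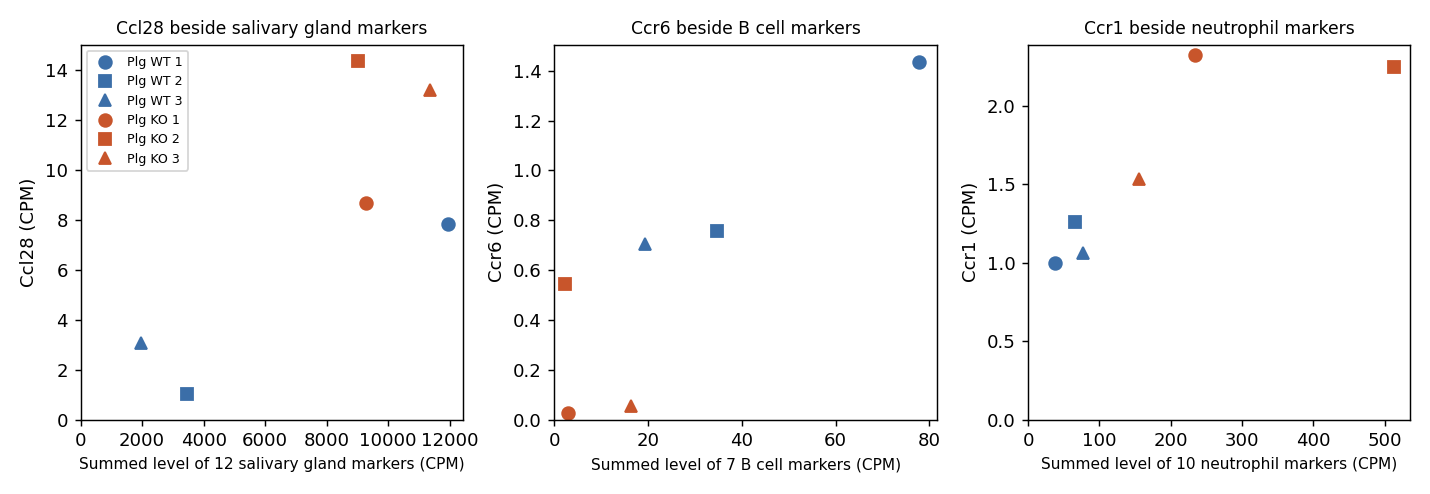
Levels in CPM of Ccl28, Ccr6 and Ccr1 in each library against the summed CPM of salivary gland, B cell and neutrophil markers (blue Plg WT, orange Plg KO, shape the replicate). Plg WT 2 and 3 are low in both Ccl28 and gland markers, Plg WT 1 is highest in both Ccr6 and B cell markers, and the Plg KO libraries are higher in both Ccr1 and neutrophil markers. Plg WT 1 has the highest gland marker sum of all libraries but less Ccl28 than every Plg KO library. Within Plg KO, replicate 2 has the highest Ccr6 level and the lowest B cell marker sum.

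Among the tested ligands and receptors of eosinophils and Th2 cells, Ccl11 separated the groups. The eotaxin Ccl11, which attracts eosinophils through Ccr3, had 6.95, 6.01 and 6.04 CPM in Plg WT against 3.27, 5.58 and 5.32 CPM in Plg KO, with all Plg KO libraries below. Fibroblast markers, from cells that also make such stromal ligands, lay the same way: 7 of 7 had a negative difference, with a median of -0.46 on the log2 scale. Of these Pdgfra, Col3a1 and Dcn were lower at an unadjusted p under 0.05, beside 4.27% of all tested genes. The summed level of the fibroblast markers was 2218 to 3746 CPM in Plg WT against 1414 to 2606 CPM in Plg KO. Their part in the Ccl11 and Ccl19 values was not tested. Ccl24 had 33 counts in Plg WT against 19 in Plg KO, and Ccr3 had 21 counts in each group. Eosinophil markers were near the detection limit, with a sum of at most 0.764 CPM over 7 markers and Ear1 at 0. The Ccr4 ligands of dendritic cells, Ccl17 and Ccl22, had 0.289 to 0.487 against 0.279 to 1.08 CPM and 0.487 to 0.756 against 0.613 to 1.01 CPM. Ccr4 had 20 of its 22 Plg WT counts in Plg WT 2 and 1 count in Plg KO.

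Remaining members gave no separation beyond that of Cx3cl1. Fractalkine, Cx3cl1, is a membrane-bound ligand of endothelium and epithelium, and had 7.04, 7.70 and 7.22 CPM in Plg WT against 6.70, 5.97 and 7.02 CPM in Plg KO, with Plg KO 3 almost at the level of Plg WT 1. Its receptor Cx3cr1, on macrophages and patrolling monocytes, had 0.931 to 2.06 and 1.09 to 1.50 CPM (log2 difference -0.23 ± 0.35, 95% interval -1.04 to 0.59). Ccr8, a receptor of skin T cells, had 0.288 to 0.622 and 0.270 to 0.557 CPM. The Ccr8 ligand Ccl1 had 4 counts in Plg WT against 20 in Plg KO, of which 15 were in Plg KO 1.

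**Figure D4:**
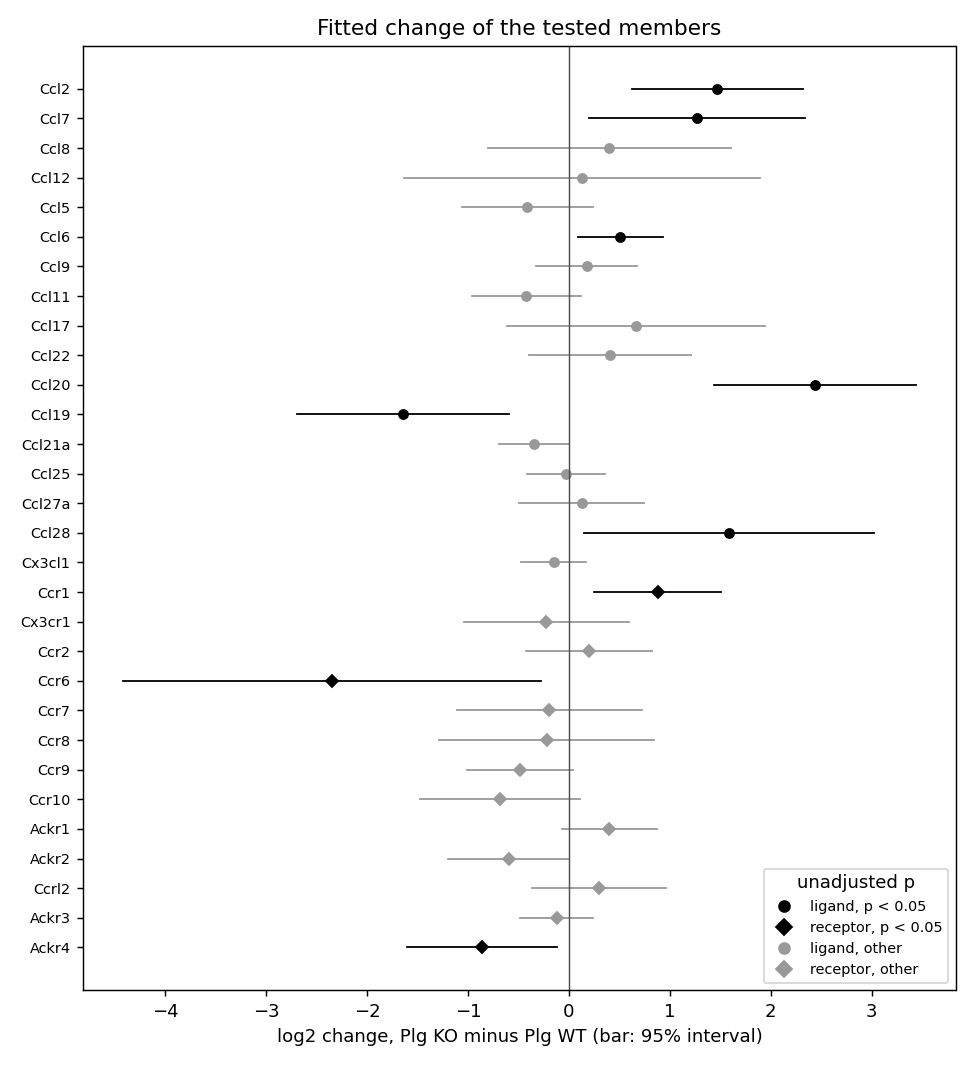
Fitted log2 difference, Plg KO minus Plg WT, of the tested members described in the text (circles ligands, diamonds receptors) with 95% intervals that are not adjusted for multiple tests, where black marks an unadjusted p under 0.05. Ccl20 has the largest positive value, 2.44, and Ccr6 the largest negative one, -2.35, with the widest interval.

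Summed over all 21 ligands, the level was 71.2, 78.5 and 73.6 CPM in Plg WT against 113.6, 115.1 and 90.9 CPM in Plg KO. The sum was higher in each Plg KO library, and Ccl2 made up most of the gap, at 10.6 ± 4.20 and 29.3 ± 10.7 CPM (mean ± SD, n = 3 each). The 16 receptors summed to 47.2 ± 1.87 and 45.5 ± 1.44 CPM, with overlapping libraries.

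Per kilobase of exon, the scale on which genes can be compared, Ccl2, Ccl6 and Ccl21a led in Plg WT at 9.35 ± 3.69, 8.79 ± 1.84 and 8.77 ± 0.138 CPM per kb. Their order among themselves was within the spread between libraries. In Plg KO, Ccl2 at 25.8 ± 9.44 CPM per kb was above Ccl6 at 12.5 ± 1.69, and Ackr1 at 9.59 and Ccl21a at 6.88 followed. Ccl20 stood in place 31 of 37 in Plg WT and place 17 in Plg KO, and Ccl28 in places 16 and 8. Ccl19 stood in places 11 and 23, and Ccr6 in places 24 and 33.

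Most of these genes sit in families of neighbours, and neighbours did not all share a direction. Within 270 kb of chromosome 11, in the order Ccl2, Ccl7, Ccl11, Ccl12, Ccl8 and Ccl1, Ccl2 and Ccl7 had Plg KO libraries above Plg WT and Ccl11, the next gene, below. A further 139 kb of that chromosome hold Ccl5, Ccl9, Ccl6, Ccl3 and Ccl4, of which Ccl6 separated the groups. Of the receptors, Ccr9, Ccr1, Ccr3 and Ccr2 are neighbours on chromosome 9, and Ccr1 separated the groups while Ccr9, Ccr3 and Ccr2 did not.

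Other parts of the pathway were read from lists of related genes, chosen with earlier results of these data known. Of all tested genes, edgeR called 0.237%, and 9.25% were past an unadjusted p of 0.05. Of 28 tested genes that pass chemokine receptor signals to the cell's motor (G proteins, arrestins, receptor kinases, regulators of G protein signalling, kinases and Rac activators), edgeR called 0, DESeq2 called 1 and limma-voom 0, and 1 was past an unadjusted p of 0.05. This was Fgr, a myeloid kinase of the Src family, with 1.20 to 1.43 CPM in Plg WT against 1.99 to 3.96 CPM in Plg KO. The list's median log2 difference was -0.04.

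Of 17 tested cytokines and NF-kappa-B pathway genes that act upstream of inflammatory chemokines, edgeR called 1, Il1b, which rose. At an unadjusted p under 0.05, 7 were higher and 0 lower, beside 4.97% and 4.27% of all tested genes. The median of this list was 0.30. Il1a, the alarm cytokine of epithelium, had 3.27 to 4.20 CPM in Plg WT against 7.29 to 14.2 CPM in Plg KO, and the interleukin-1 receptor Il1r1 had 11.8 to 13.1 and 17.1 to 25.1 CPM. The factor subunits Rela and Nfkb1 were not past that threshold.

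The chemokines of the other classes, CXC and C, and their receptors gave more calls. Of 19 tested, edgeR called 3, the neutrophil attractants Ppbp, Cxcl3 and Cxcl5, which rose (0.237% of all tested genes were called). Before adjustment, at 0.05, 7 were higher and 4 lower, beside 4.97% and 4.27% of all tested genes. The adjusted p of Ppbp, Cxcl3, Cxcl5 and Il1b was 0.0566 to 0.152 in edgeR's test when Plg WT 2, Plg WT 3, Plg KO 2 or Plg KO 3 was left out, so these calls were lost. The list's median was 0.63, beside 0.13 for the members. A difference between the lists was not tested.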

How the data were processed

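RNA of gingiva was sequenced in 6 libraries. Per the labels' protocols, the kit was Nextera XT and reads were 37 bp pairs. This kit does not keep the strand. Per the submitters' processing notes, the tools were STAR 2.5.2a, DESeq2, edgeR and limma and the builds GRCm38.p3 and mm10. The sources used here do not name the tool that counted reads or its annotation. The authors deposited raw counts for 48709 genes and CPM values after TMM scaling for 21948 genes. Another 22 entries name no gene, took at most 3.55e-05% of a library and were left out. Whole reads came back from 100% of the deposited CPM values (within 0.01 of the value or 0.01 read), and these reads, an alternative chosen after seeing the data, gave 42 calls in edgeR's test, as the counts did.

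Levels are the deposited CPM for members. Marker and pathway genes were scaled by the fit's TMM library sizes. The main test was edgeR 4.0.16 (R 4.3.3), quasi-likelihood F test on counts with TMM, filterByExpr (17757 genes) and genotype alone, with Benjamini-Hochberg adjustment over all tested genes and a call at an adjusted p under 0.05. The SE is the log2 change over the square root of F, and intervals are 95%. Alternatives used DESeq2 1.42.0 and limma 3.58.1. Scripts were tested on simulated data.

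1 member is counted in the totals and is not reported here. Members and lists were chosen with earlier results of these data known. Named with a log2 change are the 12 members with the smallest p, plus Ccl2, Ccl3, Ccl4, Ccl20, Ccr1, Ccr2, Ccr6, Ccr7, Cx3cr1 and Ccrl2, of which Ccl3 and Ccl4 were not tested, and up to 3 genes of smallest p per pathway or marker list. The other marker and pathway genes named (Pdpn, Prox1, Il17a, Rela, Nfkb1, Cxcl9, Cxcl10, Trbc2, Jchain, S100a8, S100a9, Muc5b, Muc19, Smgc, Aqp5, Bpifa2, Dcpp1, Dcpp2 and Dcpp3, and those at 0) were chosen after their values were seen. Positions and exon lengths came from GENCODE M21 on GRCm38. Any 2 libraries differed by more than sampling noise (chi-square per degree of freedom of at least 21.4), so none was taken as a copy. A count of 3 equals 0.0810 to 0.117 CPM, for counting error alone.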

Additional observations from a re-analysis of the deposited data

How the results depend on the processing

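The count of members called was 0 in edgeR's test, 2 with DESeq2, 1 without a filter on low counts (Ccl20) and 1 at an adjusted p under 0.10 (Ccl20), and 0 under every other alternative run. The count at an unadjusted p under 0.05 ran from 6 to 11, against 9, and the count of members whose groups do not overlap from 10 to 17, against 14. The median log2 difference of the members, 0.13, was -0.039 with limma-voom, -0.028 with at least 1 CPM in at least 3 libraries, -0.028 and -0.0073 with limma-trend and pseudocounts of 0.5 and 1, -0.026 with a term for sex, and -0.12 to 0.074 when 1 library was left out. The cause was not tested. With the replicate number as a replicate block, 0 members were called, 8 were past an unadjusted p of 0.05, the median was -0.027 and edgeR called 2 of all genes, so that Ppbp (adjusted p = 0.0842), Cxcl3 (0.211), Cxcl5 (0.0842) and Il1b (0.0842) lost their calls. Cxcl5 also lost its call with upper-quartile factors (0.0507). Same-numbered libraries correlated at -0.322, -0.036 and -0.288 in their deviations from the group means, so the numbers were not taken to pair them. Of the 16 members tested and named with a log2 difference, 13 kept its sign in each alternative that held them. Leaving out 1 library gave Ccr7 -0.46 to 0.13, with 0.065 without Plg WT 1 and 0.13 without Plg KO 3, Cx3cr1 -0.50 to 0.016, the latter without Plg WT 1, and Ccr2 -0.032, without Plg KO 1, to 0.41. Depth limits Ccl1, Ccl3, Ccl4, Ccl24, Ccr3 and Ccr4 most, which had 1 to 33 counts a group and were not tested.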

Other observations

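Single libraries stood out among the inflammatory members. Plg KO 1 was the highest of the 6 libraries for 8 of 31 tested members, Plg WT 1 for 8 as well, and Plg KO 3 for 2, while over all tested genes each library was highest in 14.7% to 19.5%. The members that Plg KO 1 led include Ccl2, Ccl7, Ccl8, Ccl12 and Ccl17. The interferon-induced chemokine Cxcl9, which attracts T cells through Cxcr3, had 1.45, 8.57 and 11.6 CPM in Plg WT and 31.8, 4.16 and 1.37 CPM in Plg KO, and Cxcl10 had 0.273, 1.64 and 3.40 CPM in Plg WT and 7.61, 0.505 and 0.168 CPM in Plg KO. Both were highest in Plg KO 1 and next highest in Plg WT 3, and the groups overlapped for both. These were also the libraries with high Ddx3y counts. Plg KO 1 had the lowest sum of skeletal muscle markers too, 2138 CPM against 5027 to 9961 CPM elsewhere. The part of sex or muscle content in these values was not tested.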
